A study of Mus musculus with 6 samples.

Results

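The interferon regulatory factors (IRFs) are transcription factors that switch genes on or off by binding GAAA-containing DNA elements. Of the mouse genes of this family, 8 are described here: Irf1, Irf2, Irf3, Irf4, Irf5, Irf7, Irf8 and Irf9. They were chosen by gene symbol, not by any measured value, though earlier results of these data were known. They are 8 of the 22640 genes in the deposited expression table. Each gene's value is the sum of its transcripts, 16 rows in all. All 8 passed the filter on low values and were among the 10870 genes tested.

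RNA was sequenced from CD4 T cells of wild-type C57/BL6 mice that carried 1 of 2 retroviral vectors, with 3 libraries each. In the Blimp-1 group the cells carried MigR1 with the cDNA of Blimp-1, the transcriptional repressor encoded by Prdm1, and in the empty vector group they carried MigR1 alone. In both groups naive cells were sorted from spleen and lymph node, stimulated through CD3 and CD28 with antibodies at 10 ug/ml, with IL-4 and interferon gamma blocked by antibodies, and transduced after 36 hours. After 2 more days GFP+ cells, which had taken up a vector, were sorted for RNA. The labels speak of 3 independent biological replicates without saying what a replicate is. The labels also give the activation as 3 days. Blimp-1 here is forced expression from a vector in activated cells given no polarising cytokine, so it is not the level or timing of the cell's own gene. Values are FPKM, reads scaled to transcript length and to library size, so they measure a share of the RNA pool. Because these are bulk samples, fewer cells of a type and less RNA per cell cannot be told apart.

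IRF proteins share an amino-terminal DNA-binding domain and differ in the signals that make them or activate them. IRF4 is made after antigen receptor signals, pairs with BATF and JUN proteins on DNA, and is needed for effector T cells; IRF8 is its closest relative. IRF3, IRF5 and IRF7 lie in the cytoplasm until sensors of foreign nucleic acid activate them, and IRF9 joins STAT proteins in the complex ISGF3, which turns on interferon-stimulated genes. IRF1 activates and IRF2 mostly opposes genes of the interferon response. Blimp-1 itself was first described as a repressor that binds a GAAA-containing element of the interferon beta promoter, next to sites that IRFs use.

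Promoter windows from RefSeq (GRCm38.p6) were found for all 8 members, 11 windows in all, and the 250 bases before each start site were searched on both strands. The motifs were AGNGAAAG for Blimp-1, GAAANNGAAA for the interferon response element and TTCNNNGAA for STAT proteins, with N for any base. The matches found are shown because they are the members' stretches that hold these letters; a match is not evidence of a binding site. Capitals mark a match.
Irf1, chr11:53769909-53769947, + strand: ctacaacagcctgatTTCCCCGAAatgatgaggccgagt
Irf2, chr8:46739495-46739544, + strand: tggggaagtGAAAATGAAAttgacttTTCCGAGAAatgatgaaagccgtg
Irf8, chr8:120736172-120736228, + strand: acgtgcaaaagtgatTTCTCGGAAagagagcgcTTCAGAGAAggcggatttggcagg
The STAT letters stood 90 to 82 bases before the start of Irf1, 224 to 216 before that of Irf2, and at 171 to 163 and 153 to 145 before that of Irf8. The interferon response letters stood 241 to 232 bases before the start of Irf2. Of 32851 promoter windows, 7.02% held the STAT letters, 2.98% the interferon response letters and 7.3% the Blimp-1 letters. The Blimp-1 letters were not in the windows of the 8 members, which says only that these letters are absent there. The Blimp-1 and interferon response motifs share the letters GAAA and can overlap.

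Prdm1 was at 9.91, 12.8 and 9.45 FPKM in Blimp-1 replicates 1 to 3, against 0.996, 2.03 and 1.38 FPKM with the empty vector, viral and cellular transcripts together. Estimated depth was 34100000 to 46000000 reads in the Blimp-1 libraries and 17700000 to 39200000 reads with the empty vector, so the empty vector values of replicates 1 and 3 rest on fewer reads. An IRF gene had about 330 to 6465 reads in a library. Empty vector replicate 3 stood apart, at 33.7 on a first principal component that held 52.9% of the variance, against -22.7 to 12.6 for the other 5 libraries. T cell markers summed to 1650 to 1827 FPKM with Blimp-1 and 1638 to 1960 FPKM with the empty vector. The 6 B cell markers summed to 1.495 to 6.01 FPKM with Blimp-1 and 1.66 to 4.89 FPKM with the empty vector. The 8 myeloid and dendritic markers summed to 1.58 to 2.18 FPKM with Blimp-1 and 0.519 to 1.8 FPKM with the empty vector. Their part in the results was not tested. Cd79b was the most abundant B cell marker and Itgam the most abundant myeloid marker, at 1.92 and 0.981 FPKM on average over the 6 libraries. The 4 NK cell markers summed to 13.7 to 35.3 FPKM with Blimp-1 and 3.34 to 28.4 FPKM with the empty vector; most of this was Klrd1, and Ncr1 was listed at 0 in all libraries. Of the 2 CD8 markers, Cd8b1 averaged 9.15 FPKM and Cd8a 0.14 FPKM.

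No IRF gene passed the test over all genes. Limma without a replicate block called 0 of the 8 members, against 0.0% of all tested genes, with an adjusted p of 0.998 for each member and 0 members at an unadjusted p below 0.05, against 1.13% of all genes. With the replicate number as a block, limma called 0 of 8 against 0.0184% of all genes (0.0092% in each direction), and the members' adjusted p ran from 0.152 to 0.692. Prdm1, which the vector carries, had a limma adjusted p of 0.0569 without the block and 0.00499 with it. A member not called can therefore not be read as unchanged. At an unadjusted p below 0.05 in this blocked fit, 3 members were higher with Blimp-1 (Irf2, Irf4 and Irf5) and 2 lower (Irf3 and Irf7), against 9.75% of all genes higher, 10.7% lower and 20.4% in either direction. Between Blimp-1 and the empty vector the values of all 8 members overlapped; of all tested genes 4.63% had no overlap, 2.29% higher and 2.34% lower with Blimp-1. The members' median log2 fold change was 0.02, beside -0.01 over all tested genes, with 4 members above 0 and 4 below.

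Within replicate pairs, 3 members were higher with Blimp-1 in 3 of 3 pairs (Irf2, Irf4 and Irf5) and 2 were lower in 3 of 3 (Irf1 and Irf3). Of all tested genes, 22.8% were higher and 22.8% lower in 3 of 3 pairs, 45.6% in all. For 6 of the 8 members the level differed more between replicate numbers than between vectors, by the range of the pair means on the log2 scale set against the size of the log2 fold change. Irf4 and Irf5 were the exceptions. The range spans 3 pair means and the fold change only 2 group means, so the measures are unlike. The share of all tested genes with the larger range was not computed.

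**Figure D1:**
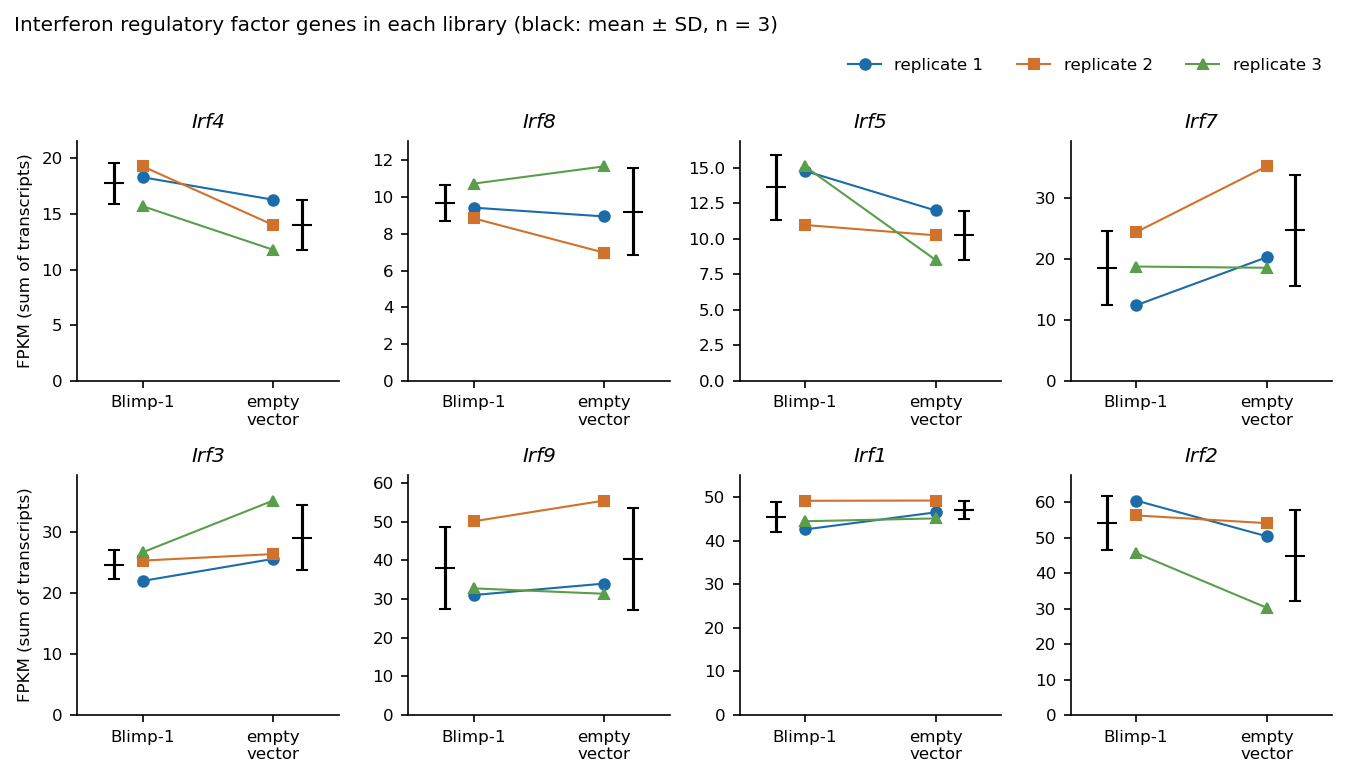
FPKM of each IRF gene (y axis, from 0) in the Blimp-1 and empty vector libraries. Lines join libraries of the same replicate number, and black marks give the mean ± SD (n = 3 per vector). For Irf4 all 3 lines are higher at the Blimp-1 end, while for Irf9 replicate 2 lies above the others with either vector, at 50.1 FPKM with Blimp-1 and 55.5 FPKM with the empty vector.

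Irf4, the family member most tied to antigen receptor signals, was at 18.3, 19.3 and 15.7 FPKM in Blimp-1 replicates 1 to 3, against 16.3, 14 and 11.8 FPKM with the empty vector. Each Blimp-1 library was above the empty vector library of its own number, and the lowest Blimp-1 value lay just under the highest empty vector value. The means were 17.7 ± 1.85 FPKM with Blimp-1 and 14.01 ± 2.25 FPKM with the empty vector (SD, n = 3 each), a ratio of 1.27. The log2 fold change was 0.33 (SE 0.15), with a 95% interval of -0.04 to 0.69, and limma with the block gave an adjusted p of 0.152. Without replicate pair 3, the blocked fit gave a log2 fold change of 0.30 and an adjusted p of 0.0227. Each blocked fit without a pair has 1 residual degree of freedom, so its tests lean on the variance shared by all genes. The weight of that shared variance, in prior degrees of freedom, was 18.4 without pair 3. It was 5.03 without pair 1 and 6.37 without pair 2. The fit without pair 3 called 11.2% of all genes. Without pair 1 the blocked limma fit gave 0.41 and an adjusted p of 0.677, and without pair 2 it gave 0.27 and 0.218. Of all 10870 tested genes it called only 3 without pair 1 and 12 without pair 2. Leaving out 1 library at a time gave log2 fold changes of 0.22 to 0.43, the lowest without empty vector replicate 3.

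Partners that bind DNA with IRF4 gave unequal values. Batf3, a partner of IRF4 and IRF8, was at 29.0, 22.5 and 24.0 FPKM with Blimp-1, against 26.3, 12.0 and 12.9 FPKM with the empty vector. It was nearly level in pair 1 and about 0.85 higher on the log2 scale in pairs 2 and 3, and its log2 fold change of 0.61 (SE 0.28) had an adjusted p of 0.156 in limma's blocked fit. Batf averaged 38.7 ± 2.64 FPKM with Blimp-1 and 39.4 ± 6.85 FPKM with the empty vector (SD, n = 3 each), a log2 fold change of -0.02. Spi1, the partner of IRF4 and IRF8 in B and myeloid cells, was at most 0.0884 FPKM in any library and Batf2 was listed at 0. Of the 15 partner factors, 11 were tested, and 0 passed with or without the block. Their median log2 fold change was 0.10, and 0.05 without pair 3. With the block and without pair 3, limma called 2 as higher, Batf3 and Fosl2, and 0 as lower, where 5.0% of all genes were called as higher.

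Genes that lie upstream of Irf4 or are induced with it by the antigen receptor had a median log2 fold change of 0.10 over 12 tested of 14. The medians of pairs 1 to 3 were 0.22, 0.28 and 0.05, and the median without pair 3 was 0.25. Over all libraries, 7 of the 12 had a log2 fold change above 0 and 5 below. None passed with or without the block. Nr4a1, a nuclear receptor gene induced by antigen receptor signals, was at 34.3, 3.27 and 3.92 FPKM with Blimp-1, against 15.7, 1.59 and 2.22 FPKM with the empty vector. It was higher in 3 of 3 pairs, while replicate 1 lay far above the other numbers with either vector. Without pair 3 the blocked fit called 5 of the 12 as higher (Nr4a1, Nr4a2, Nr4a3, Nfkb1 and Cd69) and 0 as lower, against 5.0% of all genes higher and 6.19% lower.

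Of 10 genes known as targets of IRF4 with BATF in helper T cells, 6 were tested, and 0 passed with or without the block. Their median log2 fold change was 0.26; in pairs 1 to 3 it was 0.17, 0.14 and 0.43, and without pair 3 it was 0.14, below that of the antigen receptor list. Ctla4, an inhibitory receptor of T cells, was at 208, 212 and 190 FPKM with Blimp-1, against 182, 195 and 155 FPKM with the empty vector. The cytokine genes Il4, Il10, Il17a and Il21 did not pass the filter.

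Irf8 had the lowest mean of the 8 members with either vector, though Irf5 was lower in empty vector replicate 3. It was at 9.42, 8.84 and 10.7 FPKM with Blimp-1, against 8.94, 6.97 and 11.7 FPKM with the empty vector. Replicate 3 was the highest and replicate 2 the lowest with either vector, and the vectors overlapped fully. The log2 fold change was 0.09, with a 95% interval of -0.35 to 0.52. IRF8 is known above all from B, myeloid and dendritic cells. The summed B cell markers were highest in the replicate 2 libraries, at 6.01 FPKM with Blimp-1 and 4.89 FPKM with the empty vector. The summed myeloid and dendritic markers were highest in replicate 2 with Blimp-1, at 2.18 FPKM, and in replicate 1 with the empty vector, at 1.8 FPKM. Whether such cells add to the Irf8 values was not tested. Irf4 exceeded Irf8 in each library, in empty vector replicate 3 by a ratio of 1.01.

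**Figure D2:**
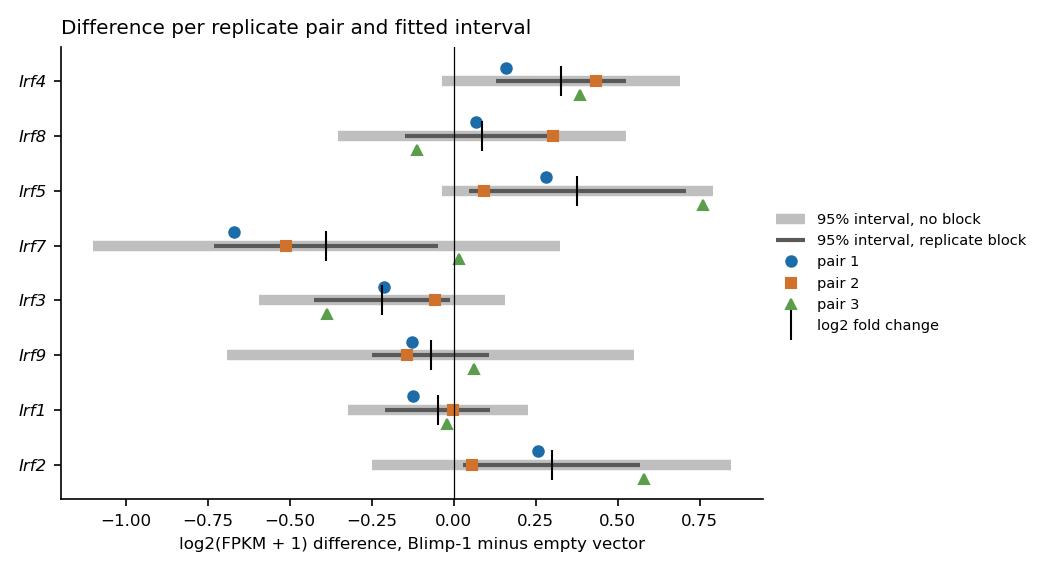
Difference in log2(FPKM + 1), Blimp-1 minus empty vector, for each IRF gene (rows), with 1 coloured point per replicate pair and the fitted log2 fold change as a black bar. Light and dark bands are the 95% intervals without and with the replicate block, not adjusted for the number of genes. Without the block all 8 include 0, and with it those of Irf2, Irf3, Irf4, Irf5 and Irf7 do not. In limma's blocked fit 20.4% of all tested genes had an unadjusted p below 0.05, and no member passed after adjustment.

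Irf5, which acts downstream of Toll-like receptors, was at 14.8, 11.0 and 15.1 FPKM with Blimp-1, against 12.0, 10.3 and 8.52 FPKM with the empty vector. It was higher with Blimp-1 in 3 of 3 pairs, but the Blimp-1 value of replicate 2 was below the empty vector value of replicate 1. The means were 13.6 ± 2.30 FPKM with Blimp-1 and 10.3 ± 1.74 FPKM with the empty vector (SD, n = 3 each), a ratio of 1.33. The log2 fold change was 0.38 (SE 0.18; limma adjusted p = 0.212 with the block), and 0.26 without empty vector replicate 3.

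Irf3, the constitutive factor that turns on interferon beta once phosphorylated, was at 21.9, 25.3 and 26.6 FPKM with Blimp-1, against 25.6, 26.3 and 35.1 FPKM with the empty vector. The pair differences were -0.21, -0.06 and -0.39 on the log2 scale, and empty vector replicate 3 lay above all other libraries. Over all libraries the log2 fold change was -0.22 (SE 0.16; limma adjusted p = 0.23 with the block). Without that library it was -0.08.

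Irf7, the interferon-induced factor that amplifies type I interferon, had the largest difference of the 8 that was lower with Blimp-1. It was at 12.4, 24.3 and 18.7 FPKM with Blimp-1, against 20.2, 35.1 and 18.5 FPKM with the empty vector. The Blimp-1 library was at 0.611 and 0.693 of the empty vector library in pairs 1 and 2, and the libraries of pair 3 were level, with a ratio of 1.01. The log2 fold change was -0.39 (SE 0.30), with a 95% interval of -1.10 to 0.32, and the adjusted p was 0.212 in limma's blocked fit. The pairs differed, so single libraries moved the value: it was -0.11 without empty vector replicate 2, -0.14 without Blimp-1 replicate 1 and -0.60 without Blimp-1 replicate 2. Without pair 3 the blocked limma fit called Irf7 as lower, with a log2 fold change of -0.59 and an adjusted p of 5.95e-05, one of 6.19% of all genes called as lower there. The same limma fit did not call it without pair 1 (-0.25, adjusted p = 0.736) or without pair 2 (-0.33, adjusted p = 0.301). Of all 10870 tested genes, that fit called only 3 without pair 1 and 12 without pair 2. A member not called there can therefore not be read as unchanged.

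The 20 kinases, adaptors and nucleic acid sensors upstream of IRF3, IRF5 and IRF7 were all tested, and 0 passed with or without the block. Their median log2 fold change was -0.02, and 14 of the 20 were highest in replicate 2 with Blimp-1 and 15 with the empty vector. The same share over all tested genes was not computed. Tank, an adaptor that binds the kinase TBK1, was at 27.6, 21.9 and 24.3 FPKM with Blimp-1, against 21.5, 20.9 and 18.3 FPKM with the empty vector, with no overlap between the vectors (limma adjusted p = 0.191 with the block). Ikbkb, a kinase of the NF-kB pathway that also acts on IRF5, was lower in 3 of 3 pairs, at 30.2 ± 4.37 FPKM with Blimp-1 and 34.0 ± 4.39 FPKM with the empty vector (SD, n = 3 each). With the block and without pair 3, limma called 1 of the 20 as lower, Ddx58, which encodes the RNA sensor RIG-I, a share near the 6.19% of all genes called as lower.

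Irf9, the DNA-binding subunit of ISGF3, was at 31.0, 50.1 and 32.7 FPKM with Blimp-1, against 34.0, 55.5 and 31.3 FPKM with the empty vector. The replicate 2 libraries stood above the others with either vector. The pair means ranged over 0.70 on the log2 scale, beside 0.84 for Irf7. The log2 fold change of Irf9 was -0.07, with a 95% interval of -0.69 to 0.55 without the block and -0.25 to 0.11 with it. Irf7 was also highest in replicate 2 with either vector.

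Stat2, which encodes another subunit of ISGF3, did not share this replicate order. It was at 14.8, 15.3 and 16.4 FPKM with Blimp-1, against 17.5, 16.5 and 19.7 FPKM with the empty vector. The vectors did not overlap, lower with Blimp-1 (log2 fold change -0.19; limma adjusted p = 0.211 with the block). Among 23 tested targets of ISGF3 and IRF7, 22 were highest in replicate 2 with Blimp-1 and 21 with the empty vector. The share of all tested genes highest in replicate 2 was not computed, so these counts cannot be called particular to the targets. Over all tested genes the replicate 2 libraries also deviated together from their vector's mean (r = 0.81).

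**Figure D3:**
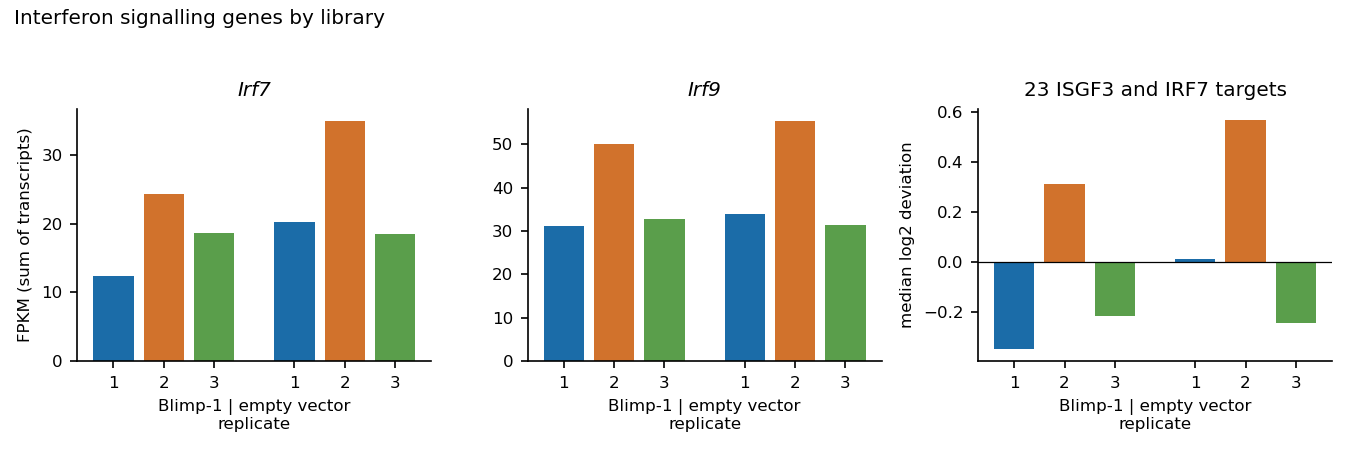
FPKM of Irf7 and Irf9 in each library, and the median deviation of 23 ISGF3 and IRF7 targets from each gene's own mean over the 6 libraries on the log2(FPKM + 1) scale. Replicate 2 is highest in each panel with either vector, at a median deviation of 0.31 with Blimp-1 and 0.57 with the empty vector for the targets.

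The ISGF3 and IRF7 targets had a median log2 fold change of -0.13, with 19 below 0 and 4 above. Of all 10870 tested genes, 5659 were below 0. Among the targets, 0 passed with or without the block. The medians of pairs 1, 2 and 3 were -0.32, -0.22 and 0.07, and the median without pair 3 was -0.27. This order of pairs was also that of Irf7, at -0.67, -0.51 and 0.01. How many of all tested genes share the order was not counted, and a link between Irf7 and the targets was not tested. Usp18, the protease that removes ISG15 from proteins and dampens interferon signalling, was lower in 3 of 3 pairs, at 6.38, 10.8 and 6.14 FPKM with Blimp-1 and 13.2, 18.0 and 10.1 FPKM with the empty vector. Its log2 fold change was -0.76 (SE 0.26; limma adjusted p = 0.142 with the block). Without pair 3 the blocked fit called 12 of the 23 as lower and 0 as higher, where it called 6.19% of all genes as lower. Bst2, one of the 23, is also a marker of plasmacytoid dendritic cells; Siglech and Tcf4, markers of the same cells, were checked with it, and the 4 markers together summed to 72.3 to 90.9 FPKM with Blimp-1 and 65.9 to 86.1 FPKM with the empty vector, nearly all of it Bst2.

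Irf1, an activator induced by interferon gamma and by STAT signals, was among the steadiest members, at 42.6, 49.2 and 44.5 FPKM with Blimp-1, against 46.5, 49.2 and 45.2 FPKM with the empty vector. The pair differences were -0.12, -0.00 and -0.02 on the log2 scale. Its log2 fold change was -0.05, and its 95% interval of -0.32 to 0.23 without the block was the narrowest of the 8. Over all settings tried, the log2 fold change stayed between -0.11 and -0.00.

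Irf2, the antagonist of IRF1, was at 60.5, 56.3 and 45.7 FPKM with Blimp-1, against 50.4, 54.1 and 30.2 FPKM with the empty vector. Replicate 3 was lowest with either vector, and empty vector replicate 3 was the lowest of all libraries. The log2 fold change was 0.30 (SE 0.23; limma adjusted p = 0.219 with the block), with pair differences of 0.26, 0.06 and 0.58. Without empty vector replicate 3 it was 0.04. Irf2 was above Irf1 in 3 of 3 Blimp-1 libraries and in 2 of 3 empty vector libraries. Irf2bp1, which encodes a corepressor that binds IRF2, was lower in 3 of 3 pairs, at 8.51 ± 0.861 FPKM with Blimp-1 and 9.57 ± 0.606 FPKM with the empty vector (SD, n = 3 each; limma adjusted p = 0.257 with the block).

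Of 17 antigen-processing genes, GTPases and other targets of IRF1, 16 were tested and 0 passed with or without the block. Their median log2 fold change was -0.03. Casp1, the inflammatory caspase, was at 27.4, 34.7 and 27.6 FPKM with Blimp-1, against 23.3, 29.4 and 23.01 FPKM with the empty vector. Socs1, a feedback inhibitor of cytokine receptors, was at 21.2, 18.3 and 20.5 FPKM with Blimp-1, against 28.9, 23.2 and 82.2 FPKM with the empty vector. Its mean difference rests largely on empty vector replicate 3, though the vectors did not overlap. With the block and without pair 3, limma called 3 of the 16 as higher (Gbp5, Cd274 and Casp1) and 2 as lower (Psmb10 and Socs1), against 5.0% of all genes higher and 6.19% lower.

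Among interferons, their receptor chains and the JAK kinases, 8 of 11 genes were tested and 0 passed with or without the block; the median log2 fold change was 0.07. Ifnb1 was listed at 0 in all libraries, and Ifng was at most 0.418 FPKM. Jak2, which signals for the interferon gamma receptor, was at 55.7, 53.9 and 39.3 FPKM with Blimp-1, against 41.8, 49.5 and 26.2 FPKM with the empty vector. Ifngr2, a chain of that receptor, was lower in 3 of 3 pairs by 0.18 to 0.23 on the log2 scale. Without pair 3 the blocked fit called 1 of the 8 as higher, Jak2, where 5.0% of all genes were called as higher.

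**Figure D4:**
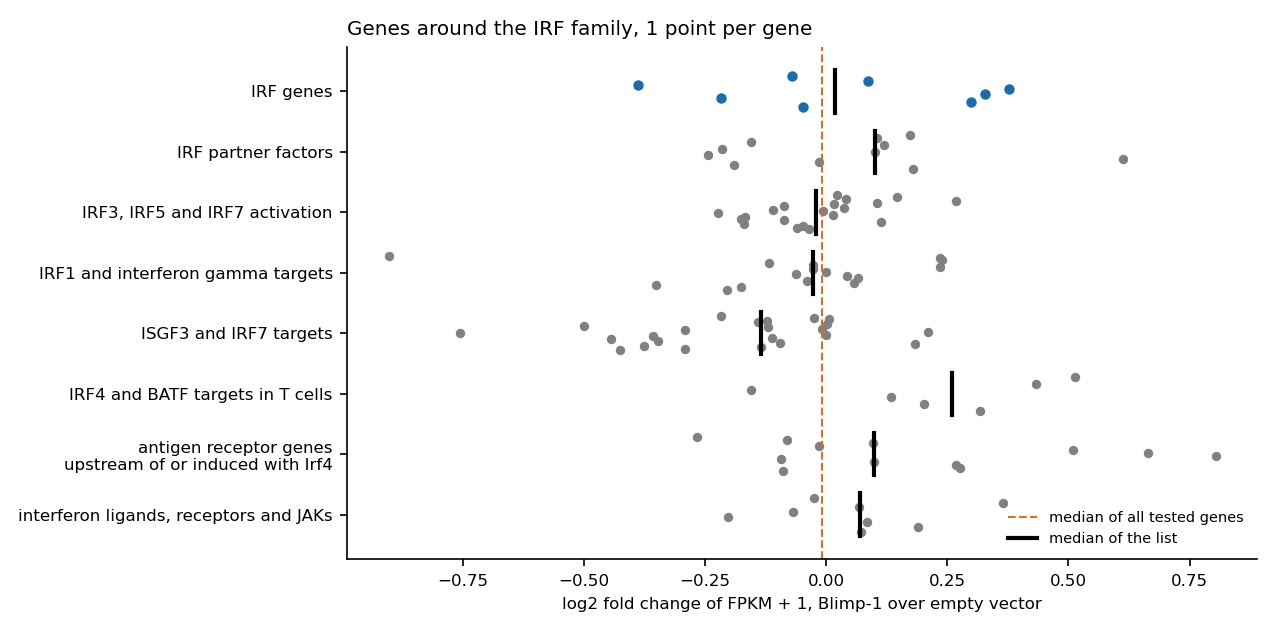
Log2 fold change of FPKM + 1, Blimp-1 over empty vector, for the 8 IRF genes and the tested members of 7 lists of related genes, 1 point per gene, with the median of each row in black and that of all tested genes, -0.01, as a dashed line. The lowest list median is that of the ISGF3 and IRF7 targets, -0.13, and the highest that of the IRF4 and BATF targets, 0.26, which was 0.14 without pair 3; no point passed the test without the block.

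As FPKM is scaled to transcript length, the levels of the members can be set side by side. With Blimp-1 the order was Irf2, Irf1, Irf9, Irf3, Irf7, Irf4, Irf5 and Irf8, at means of 54.1, 45.4, 38.0, 24.6, 18.5, 17.7, 13.6 and 9.66 FPKM. With the empty vector it was Irf1, Irf2, Irf9, Irf3, Irf7, Irf4, Irf5 and Irf8, at 47.0, 44.9, 40.3, 29.0, 24.6, 14.01, 10.3 and 9.19 FPKM. In the Blimp-1 group the library ranges of neighbours overlapped except between Irf9 and Irf3, Irf4 and Irf5, and Irf5 and Irf8. In the empty vector group Irf7 and Irf4 were the neighbours that did not overlap. The 8 genes summed to 211, 244 and 210 FPKM in Blimp-1 replicates 1 to 3 and to 214, 251 and 192 FPKM with the empty vector.

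For 5 members the table holds more than 1 RefSeq transcript. The split between transcripts is the authors' estimate from single reads of 50 cycles, which seldom span the differences between transcripts. Irf1 was mainly NM_008390, with 81.2% to 89.9% of the gene sum in Blimp-1 libraries and 78.0% to 89.4% with the empty vector. Irf5 was mainly NM_012057, at 89.8% to 94.7% in Blimp-1 libraries and 92.7% to 100% with the empty vector. The lower Irf7 values of pairs 1 and 2 were shared by its main transcripts. NM_016850 was at 6.45 and 13.7 FPKM in Blimp-1 replicates 1 and 2, against 11.4 and 17.8 FPKM with the empty vector, and NM_001252601 at 4.94 and 7.70 FPKM against 7.75 and 14.6 FPKM. Irf9 was mainly NM_001159418, which averaged 28.4 ± 10.3 FPKM with Blimp-1 and 28.1 ± 9.06 FPKM with the empty vector (SD, n = 3 each). The noncoding Irf3 transcript NR_045611 made up 27.9% ± 2.68 of the gene with Blimp-1 and 25.9% ± 6.72 with the empty vector (SD, n = 3 each).

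**Figure D5:**
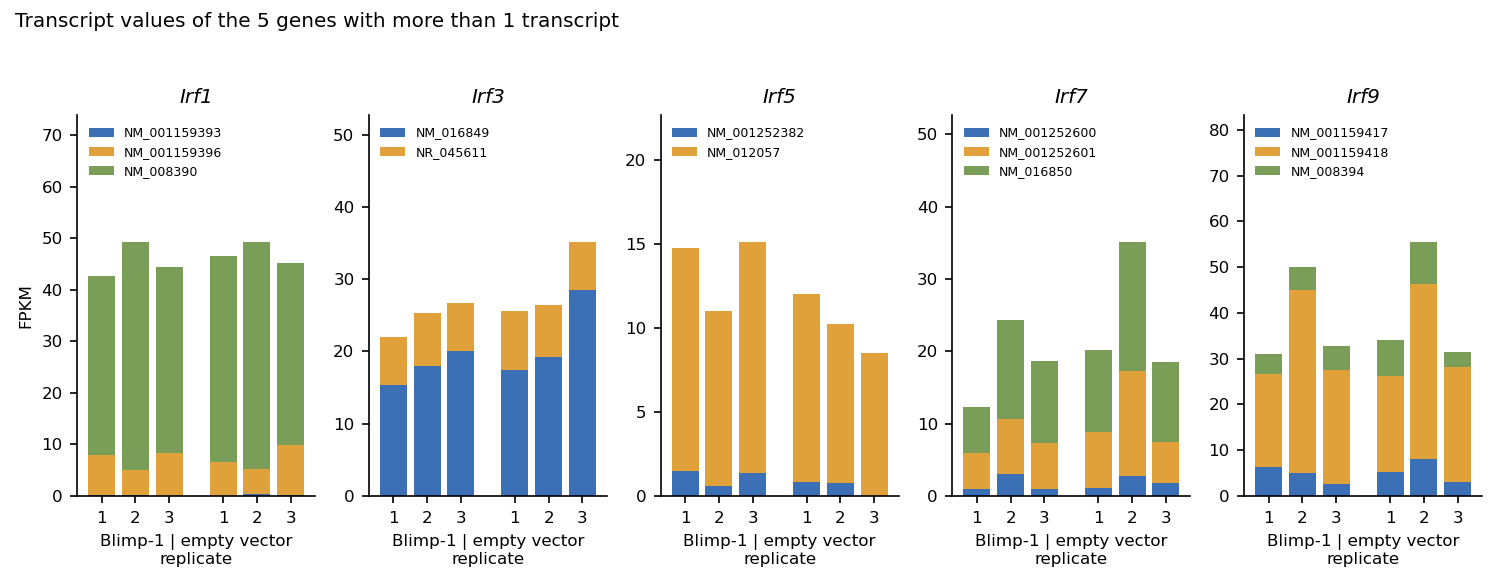
FPKM of each RefSeq transcript (stacked colours, y axis from 0) of Irf1, Irf3, Irf5, Irf7 and Irf9 in each library. One transcript carries most of Irf1 and Irf5 in each library, and the Irf7 bars of Blimp-1 replicates 1 and 2 are shorter than those of the empty vector in more than 1 colour.

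Across the 6 libraries the members did not vary as 1 group. Pearson correlations of log2(FPKM + 1), given as a description over 6 libraries that share depth and replicate origin, were 0.92 between Irf1 and Irf7, 0.88 between Irf7 and Irf9, 0.84 between Irf2 and Irf4, and -0.96 between Irf2 and Irf3. Among 8090 genes at 5 FPKM or more on average, the 3 most like Irf4 were Smarca5-ps, Alcam and Eml4, with r of 0.9751, 0.967 and 0.960. Those most like Irf7 were Rnf34, Scp2 and 2810001G20Rik (0.995, 0.993 and 0.991). Those most like Irf9 were Klhl20, Slc28a2 and Prex1 (0.998, 0.995 and 0.995), and those most like Irf2 were Golph3, Phyh and Atg12 (0.9995, 0.997 and 0.996). For Irf1 they were Dido1, a transcript with no symbol and Smim15, at r of 0.996, 0.986 and 0.985. For Irf3 they were Ilkap, Adpgk and Sema4a, at r of 0.998, 0.995 and 0.995. For Irf5 they were Fbxl8, Cdc27 and Sdcbp2, at r of 0.9898, 0.981 and 0.979. For Irf8 they were Nedd1, Katnbl1 and Paox, at r of 0.995, 0.991 and 0.9897. With 6 libraries such values are common: between 67 genes for Irf5 and 614 for Irf9 reached r of 0.9 or more.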

How the data were processed

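The authors deposited 1 table of FPKM values, 29868 RefSeq transcripts by 6 libraries. Build mm9 and the tools Cufflinks 2.2, CASAVA 1.8.2 and Partek 6.6 appear in the submitters' processing notes without a role or order; which aligner, annotation, filters and strand setting were used is not given in the sources used. FPKM is relative to the library total, and 0 may stand for an estimate that failed. Genes of near-identical sequence may share reads.

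Transcripts were named by accession from a RefSeq table (GRCm38.p6, names only) and summed per gene. One of the 9 symbols from Irf1 to Irf9, and some list members that the naming rule covers, are not reported here. Depth was estimated from genes with 1 transcript, taking the commonest low value of FPKM times length (GENCODE M21) as 1 read.

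The test was limma 3.58.1 under R 4.3.3, two-sided, with vector as sole term and a variance trend, run on log2(FPKM + 1) for genes reaching 1 FPKM in 3 or more libraries; the threshold was a Benjamini-Hochberg adjusted p of 0.05. Fold changes share that log scale and so understate low genes. As the labels do not say what a replicate is, p-values measure only the spread between these libraries. Libraries with the same replicate number deviated together from their vector's mean (r = 0.80, 0.81 and 0.70 across genes), so they were treated as pairs in a second fit with the number as a block. The code was tested on simulated data.

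The members, lists and tests were chosen with earlier results of these data known. Named list members are those that passed or, failing that, in each direction, the gene at 5 FPKM or more whose 3 pair differences share that sign and whose smallest difference is largest; Stat2, Batf, Batf3, Spi1 and genes called without pair 3 are also named, the last after their values were seen. Alternatives were pseudocounts, filters, scalings, no trend, the block and left-out libraries.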

Additional observations from a re-analysis of the deposited data

How the results depend on the processing

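No IRF gene was called under any setting without the replicate block, or with the block over all libraries. Over 19 alternatives the log2 fold changes of Irf1 to Irf5 and Irf7 kept their direction. Not all of these could disagree. Over all libraries the filters, the block and the trend setting leave a member's fold change as it was. For Irf1 to Irf5, whose 3 pair differences share a sign, leaving out a pair cannot turn it either. Leaving out libraries or pairs, that of Irf8 ran from -0.0777 (without empty vector replicate 2) to 0.2565 (without empty vector replicate 3), and was -0.0216 with the block and without pair 2. That of Irf9 ran from -0.2822 (without Blimp-1 replicate 2) to 0.1790 (without empty vector replicate 2), and was 0.0548 and 0.0172 without Blimp-1 replicates 1 and 3. Of all tested genes 0 were called without the block, 2 with it, 2 with the block after centring on library medians or quantile normalization (both added after the data had been seen), 1 with no filter and 1 after median centring alone. Leaving out libraries or pairs gave 0 to 1216. Members called ran from 0 to 2 in these fits. By list, 0 to 2 partner factors, 0 to 1 activation genes, 0 to 5 IRF1 targets, 0 to 12 ISGF3 targets, 0 to 1 IRF4 targets, 0 to 5 antigen receptor genes and 0 to 1 interferon receptor genes were called; the highest came with the block and without pair 3. The cause was not tested. Without pair 1 or without pair 2, the blocked fit called 0 members and 0 genes of any list. It called only 3 and 12 of all tested genes there. With the block over all libraries no call of a member or list changed. Limits are 3 libraries a vector, the shallower empty vector replicates 1 and 3, and transcript splits that short single reads cannot fix.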
